A study of Mus musculus with 28 samples.

Results

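Dnmt1, Dnmt3a and Dnmt3b, 3 mouse genes that encode active DNA methyltransferases, were examined for 5-hydroxymethylcytosine (5hmC) and 5-methylcytosine (5mC) peaks. Members were chosen by position alone, as every peak that overlaps 1 of 3 windows of the mm9 build. These windows are chromosome 9 from 20690001 to 20780000 for Dnmt1 (90 kb), chromosome 12 from 3790001 to 3930000 for Dnmt3a (140 kb) and chromosome 2 from 153460001 to 153530000 for Dnmt3b (70 kb). They held 804 of the 1489550 peaks in 11 lists, of which 335 lay at Dnmt1, 390 at Dnmt3a and 79 at Dnmt3b. By mark, 522 were 5hmC peaks and 282 were 5mC peaks.

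The mice were C57BL/6, aged 6 to 10 weeks, and the cells were bone marrow cells with the label LK. In all, 3 genotypes were profiled, namely wild type (WT), Tet2-/- (titled Tet2KO) and mice that lack both Tet1 and Tet2 (DKO). Each had 2 libraries of 5hmC, made by hMe-Seal, in which 5hmC is tagged chemically and pulled down, and 2 of 5mC, immunoprecipitated from methylated DNA (MeDIP-seq), except that Tet2KO had 1 of 5mC. The labels name no promoter or Cre line behind either deletion. They also leave unsaid if replicate libraries are from different mice, so every p-value here reflects the spread between these samples alone, which may be technical. In such bulk libraries a shift in the mix of cells and a change within cells cannot be told apart. No expression values were analysed here, so the label LK was not checked against marker genes.

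DNMT1 copies methylation onto the new strand after replication and is known as the maintenance enzyme. DNMT3A and DNMT3B place methyl groups on unmethylated DNA. TET enzymes oxidise 5mC to 5hmC, and in blood stem and progenitor cells Dnmt3a and Tet2 are both known as genes whose loss alters self-renewal and differentiation.

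Both marks sit mainly on CpG dinucleotides, so the 250 bases before 4 RefSeq transcription starts of these genes (build GRCm38.p6, given 5′ to 3′ on the strand of the gene) are printed with each CpG in capitals, to show how far the start sites of the family differ in the base pair that can carry either mark. All 3 genes matched the table by symbol, with 7 starts. The 2 Dnmt1 starts have the fewest and the most CpG of that gene, the Dnmt3a start has the most of its gene, and Dnmt3b has 1 start.

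Dnmt1, start with fewest CpG, minus strand: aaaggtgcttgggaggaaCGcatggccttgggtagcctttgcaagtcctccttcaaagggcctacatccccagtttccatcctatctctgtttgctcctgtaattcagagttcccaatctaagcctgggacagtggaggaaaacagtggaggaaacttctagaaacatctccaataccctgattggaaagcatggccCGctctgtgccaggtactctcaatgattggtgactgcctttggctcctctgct

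Dnmt1, start with most CpG, minus strand: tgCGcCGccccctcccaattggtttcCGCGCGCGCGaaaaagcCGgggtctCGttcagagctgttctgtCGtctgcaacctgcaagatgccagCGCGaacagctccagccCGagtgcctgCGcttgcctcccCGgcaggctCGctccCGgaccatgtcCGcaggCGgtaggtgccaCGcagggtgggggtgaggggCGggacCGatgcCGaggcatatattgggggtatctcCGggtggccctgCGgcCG

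Dnmt3a, start with most CpG, plus strand: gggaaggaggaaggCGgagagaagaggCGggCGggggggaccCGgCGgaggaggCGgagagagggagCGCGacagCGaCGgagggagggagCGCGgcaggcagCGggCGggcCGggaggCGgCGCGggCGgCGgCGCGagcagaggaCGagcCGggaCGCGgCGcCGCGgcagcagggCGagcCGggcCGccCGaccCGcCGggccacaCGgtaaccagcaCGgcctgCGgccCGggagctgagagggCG

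Dnmt3b, plus strand: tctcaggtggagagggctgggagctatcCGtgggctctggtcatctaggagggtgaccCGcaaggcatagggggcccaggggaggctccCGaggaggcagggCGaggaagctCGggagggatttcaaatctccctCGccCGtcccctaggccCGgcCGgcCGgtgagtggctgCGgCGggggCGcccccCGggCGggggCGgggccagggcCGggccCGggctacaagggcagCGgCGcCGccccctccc

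The first Dnmt1 sequence holds 2 CpG and the second 26, while the Dnmt3a sequence holds 40 and the Dnmt3b sequence 21. Of 32851 mouse promoters of that length, 18.8% have fewer CpG than the first Dnmt1 sequence, 90.4% fewer than the second, 98.7% fewer than the Dnmt3a sequence and 83.7% fewer than the Dnmt3b sequence. The median is 6. Of the starts not printed, those of Dnmt3a hold 38 and 15 CpG, and that of Dnmt1 holds 7. The peaks are in mm9, and no gene positions of that build were used here, so peaks were not placed against these starts, exons or introns. RefSeq lists Eif3g and S1pr2 as the protein-coding neighbours of Dnmt1, Dtnb and Pomc as those of Dnmt3a, and Commd7 and Mapre1 as those of Dnmt3b. Whether parts of these neighbours lie inside the windows was not determined.

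In WT, peaks of both marks covered a larger share of the window at Dnmt1, the maintenance enzyme, than at Dnmt3a or Dnmt3b. The 5hmC peaks covered 36.5% and 37.1% of its window in the WT libraries, and the 5mC peaks 13.3% and 14.3%. Over the genome, the same libraries covered 4.23% and 4.13% with 5hmC and 1.69% and 1.67% with 5mC, as a share of the summed span up to the last peak. Among 14645 tiles of 90 kb with 5hmC in at least 2 libraries, the WT mean of Dnmt1 exceeded 97.7%, and for 5mC it exceeded 99.5% of 22184 tiles.

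Dnmt3a was dense in 5hmC but less so in 5mC. Its 5hmC peaks covered 29.0% and 29.5% of the window in WT, above 96.1% of 10248 tiles of 140 kb, whereas its 5mC peaks covered 4.94% and 4.62%, above 88.2% of 15542 tiles. For both marks, Dnmt3b lay nearer the middle of the tiles that held the mark in at least 2 libraries. Its WT mean was still 2.14 times the genome-wide share for 5hmC and 1.18 times for 5mC. The 5hmC peaks covered 9.24% and 8.65% of its window in WT, above 66.1% of 17964 tiles of 70 kb, and the 5mC peaks 2.14% and 1.85%, above 60.1% of 26854 tiles. The order Dnmt1, Dnmt3a, Dnmt3b held for 5mC in all 5 libraries without overlap of the values. For 5hmC, Dnmt1 lay above Dnmt3a in both WT and both Tet2KO libraries, but in DKO the order turned, with 31.9% and 28.6% at Dnmt1 against 33.2% and 30.6% at Dnmt3a. Dnmt3b was lowest in all 6.

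**Figure D1:**
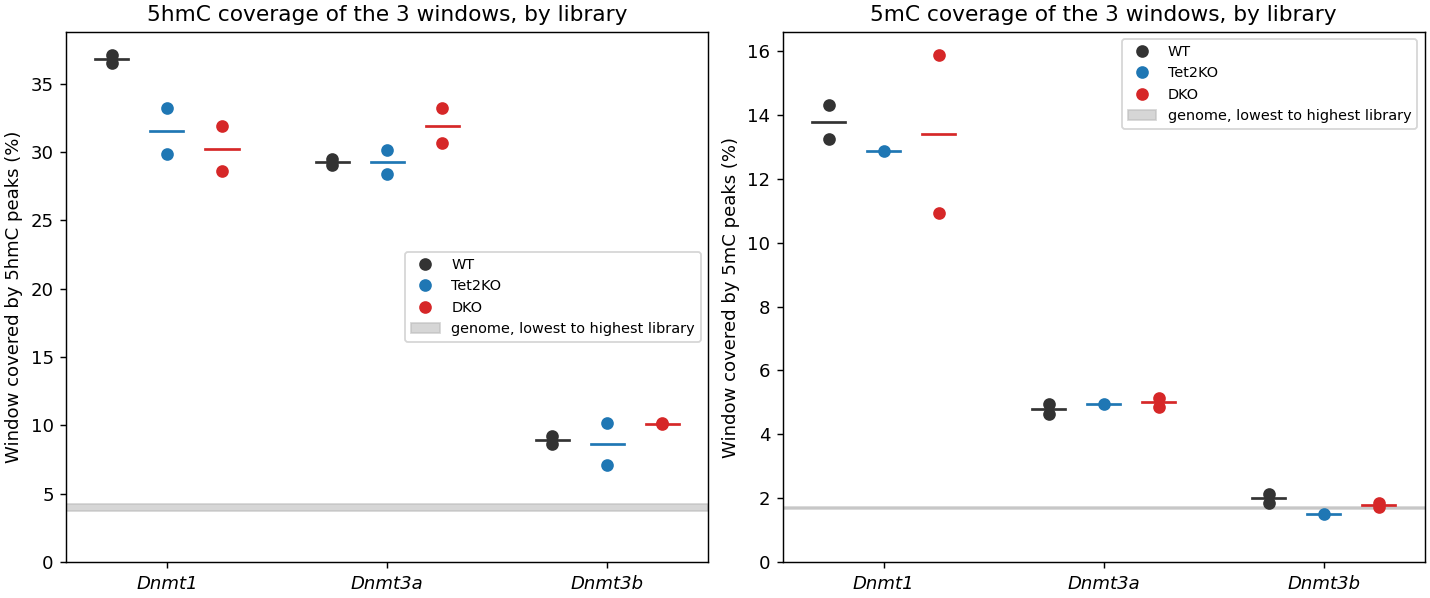
Share of each window covered by peaks (percent, y axis) for 5hmC (left) and 5mC (right), by gene and genotype. Points are libraries, short lines are genotype means, and the grey band spans the genome-wide share from the lowest to the highest library. Both WT libraries lie above all 4 knockout libraries for 5hmC at Dnmt1, at 36.5% and 37.1%.

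At Dnmt1 the 5hmC coverage was lower in every knockout library than in either WT library. Coverage was 36.5% and 37.1% in the WT libraries, 33.2% and 29.8% for Tet2KO, and 31.9% and 28.6% for DKO. The groups do not overlap. The group means were 36.8% ± 0.421 (SD, n = 2) in WT, 31.5% ± 2.38 (SD, n = 2) in Tet2KO and 30.2% ± 2.32 (SD, n = 2) in DKO. Both knockouts together differed from WT by -5.91 percentage points (exact two-sided permutation test, p = 0.0667, adjusted 0.2 over the 3 windows), and 0.0667 is the smallest p that 15 splits allow. Of the 90 kb tiles with 5hmC in at least 2 libraries, 12% had both WT libraries above all 4 knockout libraries. In 6.71% both lay below.

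In relative terms, the covered length at Dnmt1 differed from WT by -14.3% in Tet2KO and -17.8% in DKO, where the whole genome differed by -9.40% and -2.23%. A limma fit over the same 90 kb tiles, with Benjamini-Hochberg adjustment, did not call the window against WT. The adjusted p was 0.401 for Tet2KO and 0.535 for DKO. The fit called 0 of 14645 tiles in either contrast (smallest limma adjusted p 0.14 for Tet2KO and 0.515 for DKO). Of the tiles, 10.8% had a Tet2KO difference, and 2.42% a DKO difference, below that of Dnmt1. Counting only peaks that score 200 or more, the difference between both knockouts and WT was -0.967 percentage points (exact two-sided permutation test, p = 0.733). At that score the groups overlapped. With the window widened by 50 kb on each side the difference was -3.34 (exact two-sided permutation test, p = 0.0667).

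At Dnmt3a the groups overlapped. The Tet2KO libraries covered 30.2% and 28.4% with 5hmC and the DKO libraries 33.2% and 30.6%, against 29.0% and 29.5% in WT, so Tet2KO spanned the WT values while both DKO values lay above them. The WT mean was 29.2% ± 0.329 (SD, n = 2), that of Tet2KO 29.3% ± 1.27 (SD, n = 2) and that of DKO 31.9% ± 1.82 (SD, n = 2). Of the 140 kb tiles, 12.4% had both WT libraries above all 4 knockout libraries and 7.04% had both below. The share with both DKO libraries above both WT libraries was not determined. The difference of both knockouts from WT was 1.35 percentage points (exact two-sided permutation test, p = 0.467, adjusted 0.7). It ranged from 0.482 without DKO replicate 1 to 2.10 without Tet2KO replicate 2, and was 0.610 with equal numbers of top peaks and 0.588 in widened windows. Keeping only peaks with a score of 100 or more gave 0.368, and of 200 or more 2.93. In the limma fit over 140 kb tiles the adjusted p was 0.724 for DKO against WT and 1 for Tet2KO against WT. That fit called 0 of 10248 tiles in either contrast (smallest limma adjusted p 0.508 for DKO and 0.255 for Tet2KO).

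Genome-wide 5hmC coverage was itself lower in the Tet2KO lists. Expressed as a multiple of that coverage, the mean at Dnmt3a was 7.0 in WT, 7.73 in Tet2KO and 7.81 in DKO. All 4 knockout libraries lay above both WT libraries (difference 0.771, exact permutation p = 0.0667, the smallest this test allows). This scaling was chosen after seeing the data. Dividing by a coverage that was on average lower in both knockouts tends to raise their values against WT in any tile. The share of 140 kb tiles with this separation after scaling was not determined, and the shares for unscaled coverage cannot stand in for it. The same multiple at Dnmt1 was 8.80, 8.33 and 7.40 (difference -0.946, exact permutation p = 0.2).

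At Dnmt3b the Tet2KO replicates were further apart than any 2 group means. WT libraries had 5hmC coverage of 9.24% and 8.65%, Tet2KO libraries of 7.11% and 10.2%, DKO libraries of 10.1% and 10.2%. The Tet2KO libraries lay on either side of WT, and both DKO libraries lay above it. The knockouts differed from WT by 0.445 percentage points (exact two-sided permutation test, p = 0.8, adjusted 0.8). Of the 70 kb tiles, 12% had both WT libraries above all 4 knockout libraries and 6.36% had both below. How many tiles had both DKO libraries above both WT libraries was not determined. The sign turned with equal numbers of top peaks per library (-0.0464) and in widened windows (-0.384). Peaks scoring 100 or more gave 0.843, and those scoring 200 or more gave 1.9975. It ranged from 0.149 without WT replicate 2 to 1.20 without Tet2KO replicate 1, and was 0.741 without WT replicate 1, 0.178 without Tet2KO replicate 2, 0.221 without DKO replicate 1 and 0.177 without DKO replicate 2.

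**Figure D2:**
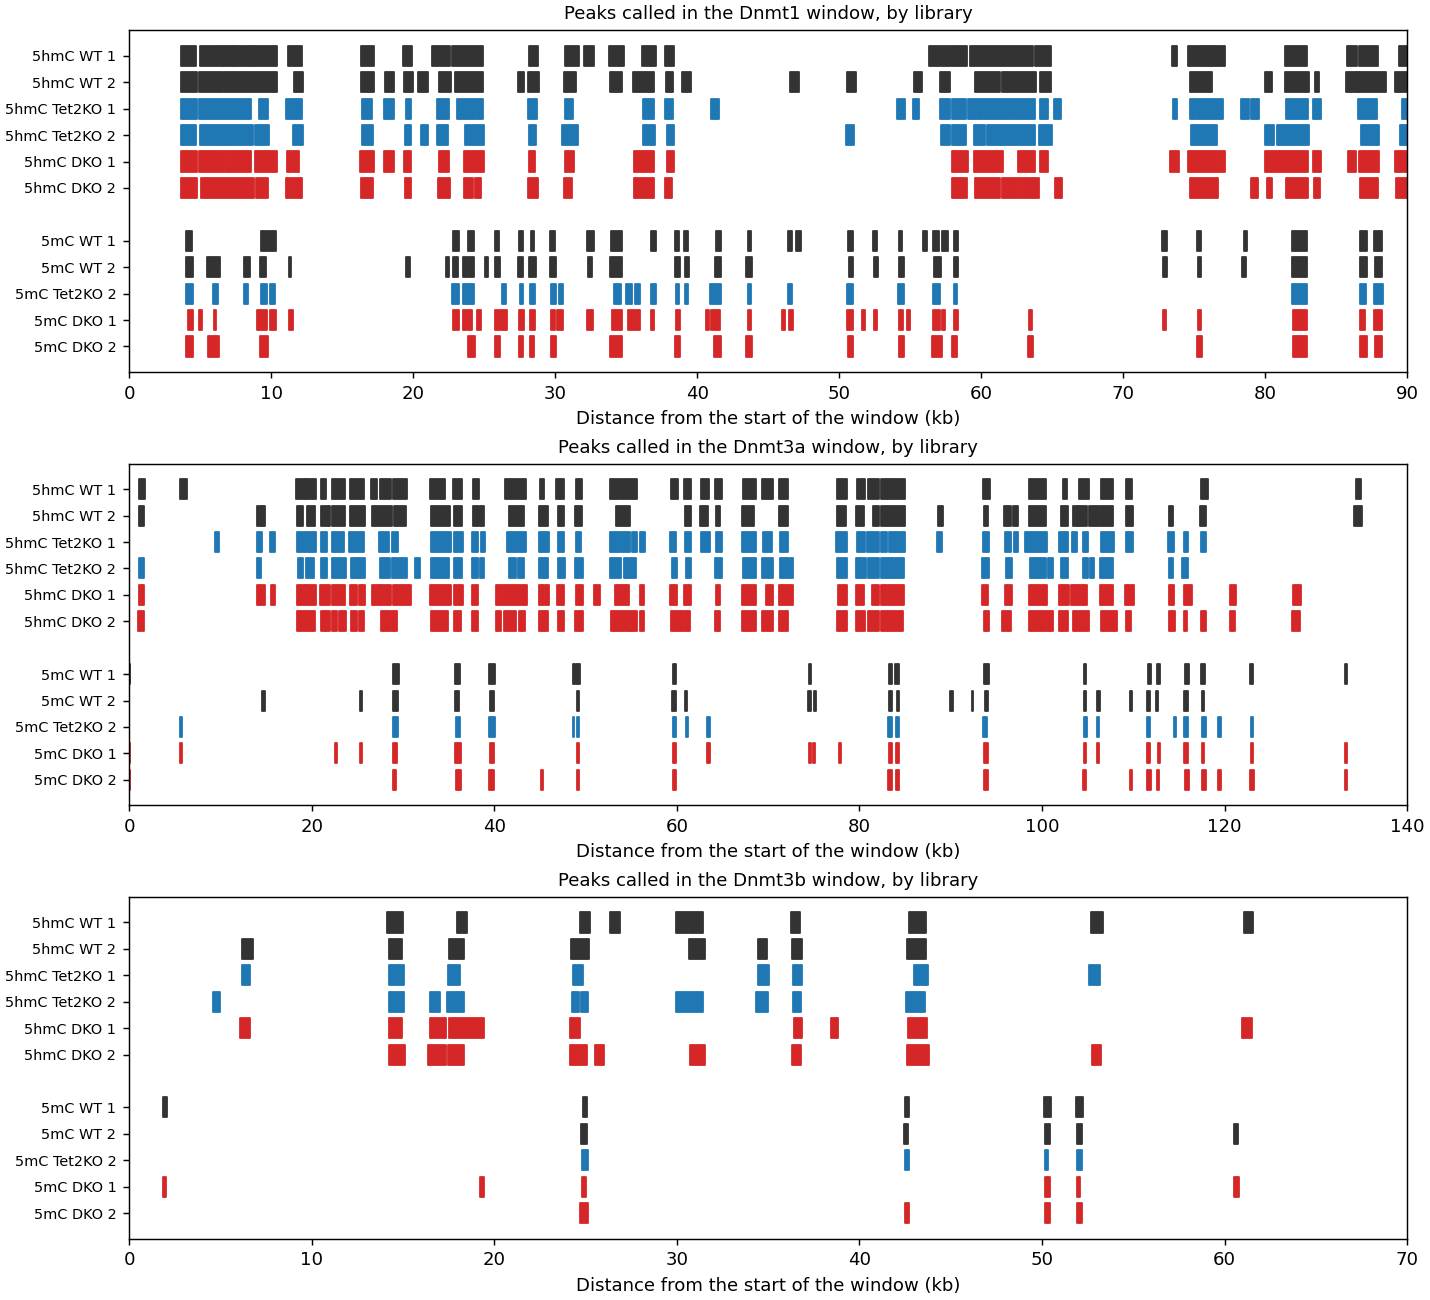
Peaks of all 11 libraries along the 3 windows (x axis, distance from the window start in kb), with 1 row per library, 5hmC above and 5mC below, coloured by genotype. Bars are called peaks. Dense 5hmC runs fill much of Dnmt1 and Dnmt3a, and Dnmt3b holds 8 to 10 5hmC peaks per library.

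Peaks of all libraries of a mark that shared 1 bp or more were joined into regions. The 5hmC peaks gave 34 regions at Dnmt1, 52 at Dnmt3a and 15 at Dnmt3b, of which 16, 27 and 5 had a peak in all 6 libraries. That is 47.1%, 51.9% and 33.3%, against 29.9% of all 206417 5hmC regions. The 5mC peaks gave 48, 33 and 7 regions, of which 17 (35.4%), 12 (36.4%) and 3 (42.9%) had a peak in all 5 libraries, against 32.3% of 218122.

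The widest 5hmC regions of the family lay at Dnmt1. One spanned 5916 bp from 20749056 to 20754971 and another 5479 bp from 20694926 to 20700404, both with peaks in all 6 libraries. In the first, the covered length was 5614 and 4847 bp in WT, 5103 and 4964 bp for Tet2KO, and 3750 and 4284 bp for DKO, so both DKO libraries were lowest. In the second it was 5319 and 5429 bp in WT, 4359 and 4769 bp for Tet2KO, and 5139 and 4506 bp for DKO. Beyond the first region, 7635 bp from 20755661 to 20763295 held no 5hmC peak in any library, the longest such stretch of the Dnmt1 window.

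Of the 16 Dnmt1 regions called in all 6 libraries, 5 had more bases covered in both WT libraries than in any knockout library, and none had fewer. Genome-wide, 13.8% of such regions had WT above and 4.17% had WT below all knockout libraries. Of the 5, 3 lay close together, and are named here after their values were seen. They were 20709272 to 20709981 (666 and 599 bp in WT, 409 to 462 bp in the knockouts), 20711306 to 20712695 (1277 and 895 bp, 756 to 850 bp) and 20712763 to 20714977 (2162 and 1962 bp, 1094 to 1873 bp). At Dnmt3a 3 of 27 regions were above and 3 below, and at Dnmt3b none of 5 was either.

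The widest Dnmt3a region ran over 2976 bp from 3842705 to 3845680, with 2884 and 1530 bp covered in WT, 2670 and 2473 bp in Tet2KO and 1499 and 2635 bp in DKO. The 2 WT values lay 1 near each end of the range. The next, 2635 bp from 3872328 to 3874962, was covered evenly, with 2361 to 2606 bp in the 6 libraries. The widest Dnmt3b region called in all 6 libraries, 2023 bp from 153477397 to 153479419, had 502 and 816 bp in WT, 658 and 961 bp for Tet2KO, and 1913 and 874 bp for DKO, so DKO replicate 1 stood apart.

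At Dnmt1, 2 5hmC regions were lost, a term used where a peak was present in 2 of 2 libraries of one genotype and in 0 of 2 of the genotype set against it (gained is the opposite). The first, at 20723791 to 20724849, had 1059 and 830 bp covered in WT and no peak in any of the 4 knockout libraries. A 5mC peak lay in it in all 5 libraries of that mark, with 512 to 847 bp covered in the 5mC region there (20723840 to 20724702). The authors' scores of its 5hmC peaks were 62.6 and 87.1, where the lowest score in the lists is 50. The second region, at 20746353 to 20747802, had 1414 and 659 bp covered in WT and 689 and 643 bp in Tet2KO, and no peak in either DKO library. It too held 5mC in all 5 libraries.

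For Tet2KO against WT, the 3 windows had 2 lost and 1 gained 5hmC region of 101, beside 3.27% lost and 3.42% gained in the genome. For DKO against WT they had 4 lost and 6 gained, beside 3.3% and 4.18%. For DKO against Tet2KO they had 3 lost and 3 gained, beside 2.21% and 2.81%. With 1 to 6 regions on each side these shares, between 0.990% and 5.94%, are near the background. At Dnmt3a, 5 of 52 regions (9.62%) were gained in DKO against WT, and at Dnmt1 none of 34.

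**Figure D3:**
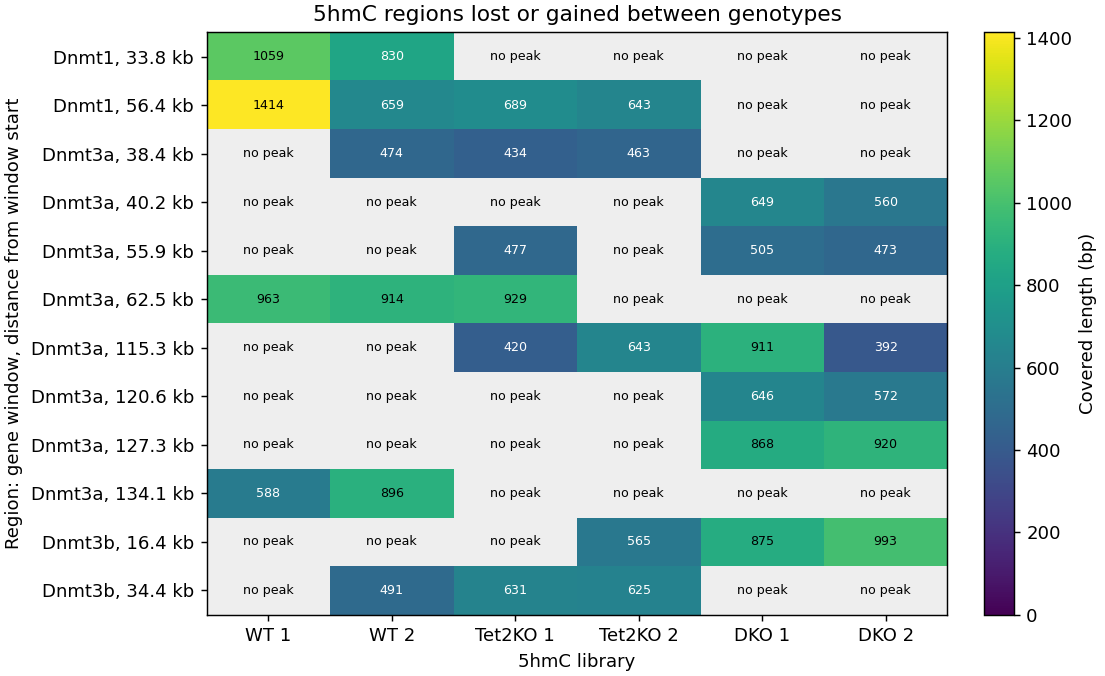
The 12 5hmC regions of the 3 windows that were lost or gained in at least 1 contrast (rows, by gene and distance from the window start in kb) in the 6 libraries (columns). Colour and numbers give the covered length in bp. The region at 33.8 kb of the Dnmt1 window has a peak in both WT libraries and in no knockout library.

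At Dnmt3a, 3 regions had a peak in both DKO libraries and in none of the other 4. A region at 3917338 to 3918311 had 868 and 920 bp covered in DKO and none in the other 4 libraries, and one at 3910573 to 3911218 had 646 and 572 bp in DKO only. The last, at 3830165 to 3830814, had 649 and 560 bp in DKO only. A region at 3905349 to 3906435 was called in all 4 knockout libraries (420 and 643 bp in Tet2KO, 911 and 392 bp in DKO) and in neither WT library, and it held 5mC in all 5 libraries. A region at 3845945 to 3846483 was called in both DKO libraries and in Tet2KO replicate 1.

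Losses at Dnmt3a were fewer. The region at 3924145 to 3925040 had 588 and 896 bp covered in WT and no peak in any knockout library, and no 5mC peak overlapped it. The region at 3852527 to 3853586 had 963 and 914 bp in WT and 929 bp in Tet2KO replicate 1, and was absent from Tet2KO replicate 2 and both DKO libraries. Another, at 3828395 to 3828998, was called in WT replicate 2 and both Tet2KO libraries and lost in DKO against Tet2KO.

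At Dnmt3b, 1 region was gained in DKO against WT. It lay at 153476388 to 153477380, with 875 and 993 bp covered in DKO and 565 bp in Tet2KO replicate 2. One region, at 153494357 to 153495064, was called in WT replicate 2 and both Tet2KO libraries and in neither DKO library. The scores of the 5hmC peaks in the 12 lost or gained regions ran from 51.5 to 121, where the lowest score is 50. Of all 5hmC peaks, 45.2% to 48.2% per list score 100 or more. With peaks scoring 100 or more, the windows had 0 lost or gained regions for Tet2KO against WT. They had 1 for DKO against WT and 0 for DKO against Tet2KO. The regions left and the genome-wide share at that score are not given here, so these counts cannot be set against the background.

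Coverage was next compared in bins of 10 kb, fitted with limma over the whole genome. None of the 30 bins of the 3 windows was called in any of the 3 5hmC contrasts at an adjusted p under 0.05, and none of 74281 bins was called genome-wide (0%). At an unadjusted p under 0.05, 3 of 30 bins passed for Tet2KO against WT, 7 for DKO against WT and 4 for DKO against Tet2KO, where 10.5%, 9.61% and 7.33% of all bins passed. All 3 Tet2KO bins were lower than WT, and genome-wide 5hmC coverage in Tet2KO was lower too (-9.40%). How the passing bins of the whole genome split by direction was not determined. Of the 7 DKO bins, 4 were lower and 3 higher.

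The Dnmt1 bins with the smallest p were neighbours. From 20720001 to 20730000 the 5hmC peaks covered 43.9% and 43.5% in WT, 19.0% and 24.6% for Tet2KO, and 26.1% and 24.4% for DKO. The arcsine difference was -0.24 (SE 0.037) for Tet2KO against WT (limma, adjusted p = 0.218) and -0.20 (SE 0.037) for DKO against WT (adjusted p = 0.224). From 20710001 to 20720000, a bin named after its values were seen, WT had 40.5% and 47.1%, Tet2KO 33.6% and 31.1%, and DKO 26.2% and 25.8%. In both bins the WT libraries lay above all knockout libraries, a separation that picking bins by small p or by their values favours. The share of all 10 kb bins with this separation was not determined. From 20740001 to 20750000 DKO alone was low, with 15.4% and 14.1% against 36.3% and 27.0% in Tet2KO and 33.7% and 23.5% in WT (DKO against Tet2KO, limma adjusted p = 0.439). How many bins had both DKO libraries lowest was not determined.

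The other bins with an unadjusted p under 0.05 lay at Dnmt3a and Dnmt3b. At Dnmt3a the bin from 3910001 to 3920000 had 15.1% and 14.9% covered in DKO and none in the other libraries (limma, adjusted p = 0.224 against WT and 0.318 against Tet2KO), and the bin from 3920001 to 3930000 had 5.88% and 8.96% in WT and none in the knockouts (adjusted p = 0.218 for Tet2KO and 0.224 for DKO). These 2 bins hold the lost and gained regions at the end of the window. A densely covered Dnmt3a bin, from 3830001 to 3840000, had 41.8% and 39.3% in the WT libraries, 42.4% and 40.9% in those of Tet2KO, and 58.0% and 49.98% in those of DKO, so both DKO libraries lay above the rest. It is named after its values were seen, and was not called (limma, adjusted p = 0.4 against WT and 0.574 against Tet2KO). The share of all 10 kb bins with both DKO libraries above the rest was not determined. At Dnmt3b the bin from 153470001 to 153480000 had 14.03% and 14.9% covered for WT, 14.7% and 23.7% for Tet2KO, 35.0% and 27.3% for DKO (DKO against WT, limma adjusted p = 0.324).

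**Figure D4:**
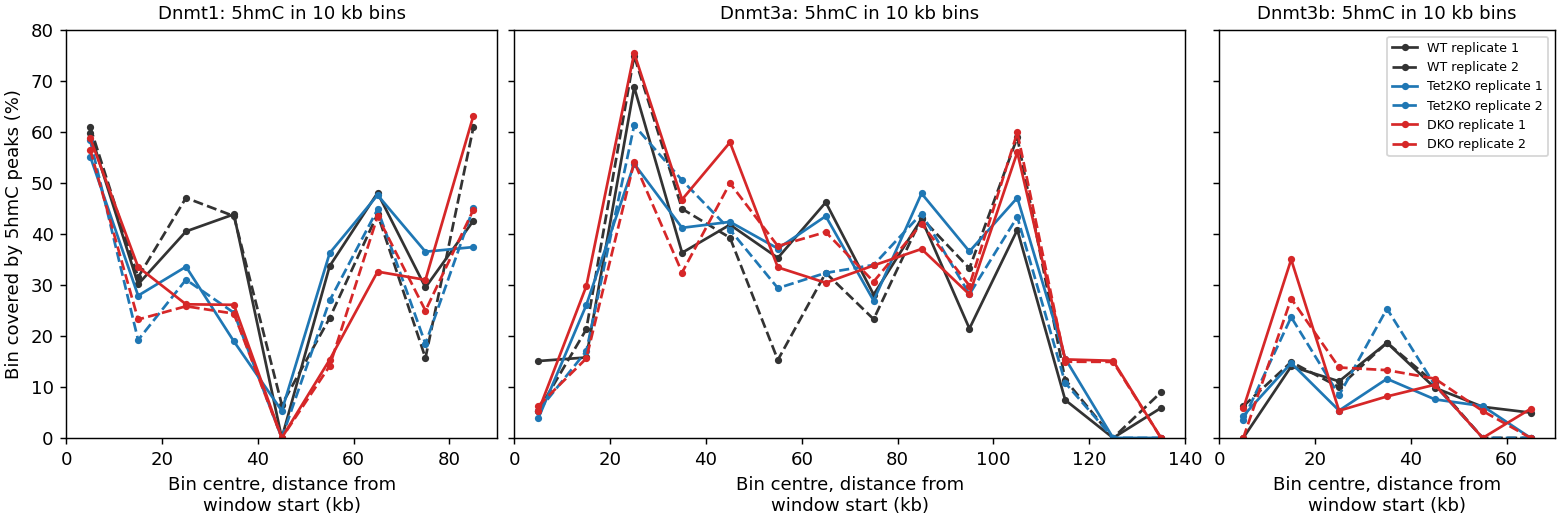
Share of each 10 kb bin covered by 5hmC peaks (percent, y axis) along the Dnmt1, Dnmt3a and Dnmt3b windows (x axis, bin centre in kb from the window start). Lines are libraries, solid for replicate 1 and dashed for replicate 2. In the Dnmt1 bin centred at 35 kb WT has 43.9% and 43.5%, and the knockout libraries have 19.0% to 26.1%.

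For 5mC at Dnmt1 the groups overlapped. The WT libraries covered 13.3% and 14.3%, the Tet2KO library 12.9%, and the DKO libraries 15.9% and 10.9%. The DKO libraries lay on either side of all the others, with 41 and 21 peaks, and over the genome they also had the most and the fewest 5mC peaks (147934 and 120243). DKO differed from WT by -0.392 percentage points (exact two-sided permutation test, p = 1; 2 against 2 libraries cannot go below 0.333). The sign turned with peaks scoring 100 (0.255) or 200 (0.217) or more, without WT replicate 2 (0.141) and without DKO replicate 2 (2.08), and the difference was -2.86 without DKO replicate 1, -0.924 without WT replicate 1 and -0.973 with equal numbers of top peaks.

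At Dnmt3a the 5mC coverage was 4.94% and 4.62% in WT, 4.95% in Tet2KO and 5.13% and 4.86% in DKO, a range narrower than that at Dnmt1. DKO differed from WT by 0.219 percentage points (exact two-sided permutation test, p = 0.667). That difference was 0.0604 without WT replicate 2, 0.0818 without DKO replicate 1, 0.377 without WT replicate 1 and 0.355 without DKO replicate 2, and with peaks scoring 100 or 200 or more it was 0.0396 and 0.507. At Dnmt3b the 5mC coverage was 2.14% and 1.85% in WT, 1.51% in Tet2KO and 1.84% and 1.73% in DKO, with both DKO values just below WT (difference -0.206, exact two-sided permutation test, p = 0.333, the smallest possible). WT replicate 2 and DKO replicate 1 came closest, with 1294 and 1289 bp covered. The share of 70 kb tiles with both DKO libraries below both WT libraries for 5mC was not determined. Without WT replicate 1 the Dnmt3b difference was -0.0614, and without WT replicate 2 it was -0.35. In widened windows it was -0.624. The sign turned at Dnmt3a with equal numbers of top peaks (-0.0221) and in widened windows (-0.193), and at Dnmt3b with peaks scoring 100 (0.172) or 200 (0.105) or more.

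Of 88 5mC regions, 2 were lost and 1 was gained in DKO against WT, all at Dnmt1, where 2.37% and 2.53% of regions were lost and gained genome-wide. The lost regions lay at 20729096 to 20729406, which Tet2KO also had, and at 20768385 to 20768687. The gained region, at 20753301 to 20753637, had 220 and 337 bp covered in DKO and lay inside the widest 5hmC region of the window. In limma no 10 kb bin was called for 5mC, in the windows (27 bins) or among all 90130 (0%), and 2 of the 27 had an unadjusted p under 0.05, against 6.8% of all.

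The strongest 5mC peak of the family was at Dnmt1 in all 5 libraries. It spanned 20771854 to 20772934 in WT replicate 1, with close ends in the others, and its score lay between 1577 and 1967, above 99.6% to 99.7% of the peaks of its list. It overlapped a 5hmC region called in all 6 libraries. The strongest 5hmC peaks at Dnmt1 had scores from 887 to 1329, those at Dnmt3a from 481 to 726 and those at Dnmt3b from 147 to 265.

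At Dnmt1 and Dnmt3a the marks met more often than over the genome, a difference given as shares without a test. In WT, 21 of 31 and 22 of 32 5mC peaks at Dnmt1 overlapped a 5hmC peak of a WT library (67.7% and 68.8%), and at Dnmt3a 9 of 18 and 14 of 22 did (50% and 63.6%). Over the genome 29.2% and 29.6% did. In DKO the shares at Dnmt1 were 46.3% and 52.4% (19 of 41 and 11 of 21), and at Dnmt3a 54.2% and 63.2%, beside 26.6% and 27.9% in the genome. The 95% Clopper-Pearson intervals at Dnmt1 run from 48.6% to 83.3% for WT replicate 1 and from 29.8% to 74.3% for DKO replicate 2, and cover counting error only. More 5hmC coverage gives more overlap, and its part in these shares was not tested. At Dnmt3b 2 peaks overlapped in each of the 5 libraries, of 4 to 6.

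Seen from the 5hmC side, 24 of 34 Dnmt1 regions (70.6%) overlapped a 5mC region of any library, against 20 of 52 at Dnmt3a (38.5%), 3 of 15 at Dnmt3b (20%) and 29.3% in the genome. The 2 widest Dnmt3a regions differed in this respect. The region from 3842705 to 3845680 overlapped no 5mC peak, and the one from 3872328 to 3874962 had 5mC in all 5 libraries.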

How the data were processed

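The submitters' processing notes name Bowtie 0.12.9, MACS 1.4.2, CASAVA 1.4 and, as the build, mm9, without saying what each did. The authors deposited 1 peak list per library, with position and a score per peak. The deposited score has the form of -10 times the log10 of a p-value, and no list goes below 50. The sources used here state neither control library, duplicate removal nor reads per library, so depth is unknown. Groups follow the sample titles; the single 5mC Tet2KO library is titled replicate 2. Positions count from 1.

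Covered shares, joined regions and overlaps were computed with Python 3.11.15. Bins of 10 kb with a peak in at least 2 libraries were fitted with limma 3.58.1 (R 4.3.3, trend) on the arcsine of the square root of the covered fraction, and adjusted by Benjamini-Hochberg over all bins. The fit was tested on simulated data, where it missed small differences added to the bins. A bin that was not called is therefore not read as unchanged. Tests over libraries were exact two-sided permutations. Named features are every lost or gained region, up to 5 widest regions called in all libraries, the widest peaks, and bins with the smallest p or the highest or lowest coverage, with exceptions stated. Members and lists were chosen with earlier results of these data known. The planned counts for other methylation genes and gene parts were not made, as no mm9 gene positions were used here.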

Additional observations from a re-analysis of the deposited data

How the results depend on the processing

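No bin was called genome-wide in any of the 4 contrasts under the 48 alternative fits run, which include bins of 5 kb and 100 kb (smallest adjusted p 0.0879 to 0.192 by contrast, largest 0.498 to 0.98); with the replicate number as a block the smallest adjusted p was 0.402, 0.452 and 0.610 for the 5hmC contrasts and 0.906 for 5mC. Fits without 1 library assume that a lone library varies like the others. The labels do not say that a replicate number marks a shared animal. Over 10 kb bins, deviations of same-numbered libraries were hardly correlated (0.00197 to 0.0226 for 5hmC, -0.0494 for 5mC). Over the whole genome, replicate 1 of each genotype had fewer and wider 5hmC peaks than replicate 2, and more coverage. That coverage was 4.23% against 4.13% in WT, 3.84% against 3.73% in Tet2KO and 4.17% against 4.01% in DKO. The block left the differences in covered share as they were (-5.91 at Dnmt1, 5hmC) and gave an exact p of 0.111, 0.444 and 0.889 for 5hmC at Dnmt1, Dnmt3a and Dnmt3b. The blocked exact test has fewer splits, and 0.111 is the smallest p it allows.

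The covered-share tests cannot pass 0.05 under any setting, so signs and sizes are compared. At Dnmt1 the 5hmC difference was -5.91 percentage points in the main setting. It was -0.967 at a score of at least 200, where the WT and knockout groups overlapped. The 5hmC sign was kept at Dnmt1 and Dnmt3a under all alternatives run. It turned at Dnmt3b with equal numbers of top peaks (-0.0464) and in widened windows (-0.384). For 5mC it turned at Dnmt1 at a score of at least 100 (0.255) or 200 (0.217) and ranged from -2.86 to 2.08 without 1 library. It also turned for 5mC at Dnmt3a with top peaks (-0.0221) and widened windows (-0.193), and at Dnmt3b at a score of at least 100 (0.172) or 200 (0.105); the cause was not tested. The limma fit over tiles and the scaling by genome-wide coverage were chosen after seeing the data.

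Counts of lost and gained regions moved most. For Tet2KO against WT the count of 3 was 0 at a score of at least 100 or 200 and 5 with equal top peaks, and 9 to 13 without 1 library. For DKO against WT the count of 10 was 1 at either score minimum and 14 to 24 without 1 library. For DKO against Tet2KO the count of 6 was 0 and 1 at the minimum of 100 and 200, and 8 to 16 without 1 library. For 5mC the count of 3 was 0 at a score of at least 100 and 7 to 19 without 1 library. With 1 library left in a genotype, that library alone decides, which raises the counts. No genome-wide share was set beside the counts under these alternatives. Of 282 5mC peaks in the windows, 57.1% overlapped 5hmC, 45.4% when both 5hmC libraries of the genotype had to overlap, and 49.3% at a score of at least 100 in both marks.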

Other observations

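Not all of the Dnmt1 window carried both marks. In the bin from 20730001 to 20740000 the 5hmC peaks covered 0 to 6.51% in the 6 libraries, the lowest of the window, while 5mC peaks covered 8.12% to 15.9% in the 5 libraries. The bin from 20750001 to 20760000 had the reverse, with 32.6% to 48.1% covered by 5hmC and 0 to 3.37% by 5mC. At Dnmt3a the bin with the highest mean 5mC, from 3900001 to 3910000 (12.9% to 19.98%), was low in 5hmC (7.44% to 15.6%), and the bin with the highest mean 5hmC, from 3810001 to 3820000 (53.8% to 75.5%, and highest in each library but DKO replicate 2), had 3.27% to 7.68% of 5mC.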
